A study of Mus musculus with 10 samples.

Results

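The genes described here encode matrix glycoproteins and the proteins of elastic fibres: Fn1, Sparc, Tnc, Thbs1, Thbs2, Bgn, Fbn1, Eln, Lox and Loxl1. They are the rows with these symbols in a table of raw read counts per gene, 10 of the 24421 genes in the table, and all 10 passed the filter on low counts that left 13688 genes for testing. RNA came from a piece of the tail of the pancreas of female mice aged 12 weeks, with 1 library per mouse. All mice carried Ptf1aCreER, a Cre recombinase that tamoxifen activates and that the Ptf1a gene drives in the acinar cells, which make digestive enzymes, and nTnG, a fluorescent reporter of the cell nucleus. The groups differed in Insr, the gene of the insulin receptor: the WT group was Insrw/w with 0 floxed alleles (3 libraries), the Het group Insrw/f with 1 floxed allele (3 libraries) and the KO group Insrf/f with 2 floxed alleles (4 libraries). Cre can remove a floxed allele in cells that express Ptf1a, and the piece of tissue also holds fibroblasts, vessels, ducts, islets and immune cells, which this driver does not target. Neither the tamoxifen schedule nor the diet is given in the labels used here. By its title the series concerns the insulin receptor of acinar cells, digestive enzymes and inflammation. Libraries are named by group and mouse number, as in WT-2404.

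The extracellular matrix outside the basement membrane is made mostly by fibroblasts, and in a damaged pancreas by activated stellate cells, which are the fibroblast-like cells of this organ. Fibronectin, the product of Fn1, is assembled into fibrils that cells grip through integrins and on which collagen and fibrillin are then deposited. Matricellular proteins such as SPARC, tenascin C and the thrombospondins are secreted into the matrix but act less as scaffold than as modulators of adhesion and of growth factors. An elastic fibre has a core of elastin on a sheath of fibrillin microfibrils, and the copper enzymes lysyl oxidase and its relative LOXL1 cross-link elastin and collagen.

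RefSeq promoter windows of 250 bases before the annotated start are described here for 5 of the 10 genes, namely Bgn, Fbn1, Sparc, Thbs2 and Tnc. No window is given here for Fn1, Eln, Thbs1, Lox and Loxl1, which does not show that RefSeq has none. The windows of Bgn, Thbs2 and Tnc, 3 genes whose KO and WT libraries did not overlap, held no exon base and are printed here to show what lies upstream of genes that were low together. They run 5′ to 3′ on the strand of the gene in GRCm38.p6, and capitals mark matches to the motifs searched.
Tnc (chr4:64047016-64047265, minus strand): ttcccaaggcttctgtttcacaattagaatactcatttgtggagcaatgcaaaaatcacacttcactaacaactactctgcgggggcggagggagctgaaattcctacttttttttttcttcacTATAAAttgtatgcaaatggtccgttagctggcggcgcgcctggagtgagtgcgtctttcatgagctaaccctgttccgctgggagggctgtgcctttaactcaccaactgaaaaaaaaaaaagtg
Thbs2 (chr17:14694263-14694512, minus strand): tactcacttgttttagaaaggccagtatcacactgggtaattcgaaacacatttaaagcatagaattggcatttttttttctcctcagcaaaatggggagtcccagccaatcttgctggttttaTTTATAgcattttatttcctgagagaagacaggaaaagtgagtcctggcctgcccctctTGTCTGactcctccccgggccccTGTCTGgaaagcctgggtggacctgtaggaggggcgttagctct
Bgn (chrX:73483351-73483600, plus strand): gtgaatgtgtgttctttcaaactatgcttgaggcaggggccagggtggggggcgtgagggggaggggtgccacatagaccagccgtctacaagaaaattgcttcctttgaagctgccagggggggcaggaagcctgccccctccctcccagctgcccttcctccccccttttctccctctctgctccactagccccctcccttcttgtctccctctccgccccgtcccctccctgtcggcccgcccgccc
The motifs were CAGACA for SMAD factors, GGAATG for TEAD factors, TGANTCA for AP-1 and TATAAA for a TATA box, each on both strands. Tnc held a TATAAA match that began 126 bases before the start. Thbs2 held CAGACA matches at 67 and 44 bases before the start and a TATAAA match at 126 bases, all 3 on the opposite strand, where they read TGTCTG and TTTATA. In the window of Sparc, CAGACA matched at 36 bases before the start, on the opposite strand. The 4 motifs had no match in the windows of Bgn and Fbn1. The windows of Sparc and Fbn1 lie inside the gene as GENCODE annotates it. Exons of the same gene cover 238 of the 250 bases for Sparc and all 250 for Fbn1. Of all 32851 RefSeq windows of this length, 17.1% held CAGACA, 12.6% GGAATG, 6.75% TGANTCA and 12.4% TATAAA.

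Library depth ranged from 11718559 to 19024351 gene counts and overlapped between groups. WT-2404 stood apart from the other 9 libraries: 26 acinar marker genes took 16.4% of its gene counts, against 60.8% and 74.1% in the other WT libraries, 73.9% to 78.8% in Het and 65.0% to 80.3% in KO. Its TMM scaling factor, which corrects for such differences in composition, was 3.54, against 0.596 to 1.56 in the rest. Its label is also the only one to name pulverising and a micro-scale RNA kit, in a text that speaks of all the groups, while the other 9 name a column kit and a stranded mRNA library kit. The labels do not settle whether its handling differed, and the library and its label cannot be told apart, so results are given with and without it. Insr itself was counted in all libraries at 29.8 ± 9.89 CPM in WT (SD, n = 3). The level was 38.5 ± 8.93 CPM among Het libraries (SD, n = 3) and 31.5 ± 5.96 CPM among KO libraries (SD, n = 4). A count per gene does not tell the exons apart, so this level is no check of the deletion in acinar cells. CPM, counts-per-million, were computed here with TMM-scaled library sizes.

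In the KO pancreas all 10 genes lay below their WT level, as 48.1% of all genes tested did, from 2.28-fold lower for Thbs1 to 5.75-fold lower for Tnc. All 10 also lay below WT in the Het pancreas, beside 49.7% of all genes, from 2.39-fold lower for Thbs1 to 4.63-fold lower for Tnc. In KO against Het 7 of the 10 were below 0, beside 48.5% of all genes, with fold changes between -0.55 for Lox and 0.16 for Loxl1 on the log2 scale. Over the 10 genes the median log2 fold change was -1.61 (KO against WT), -1.59 (Het against WT) and -0.14 (KO against Het), beside medians over all genes tested of 0.03, 0.00 and 0.01. KO and Het were set against the same 3 WT libraries, so the likeness of their values rests in part on those libraries. In a piece of tissue, fewer cells of a type and less RNA per cell cannot be told apart.

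**Figure D1:**
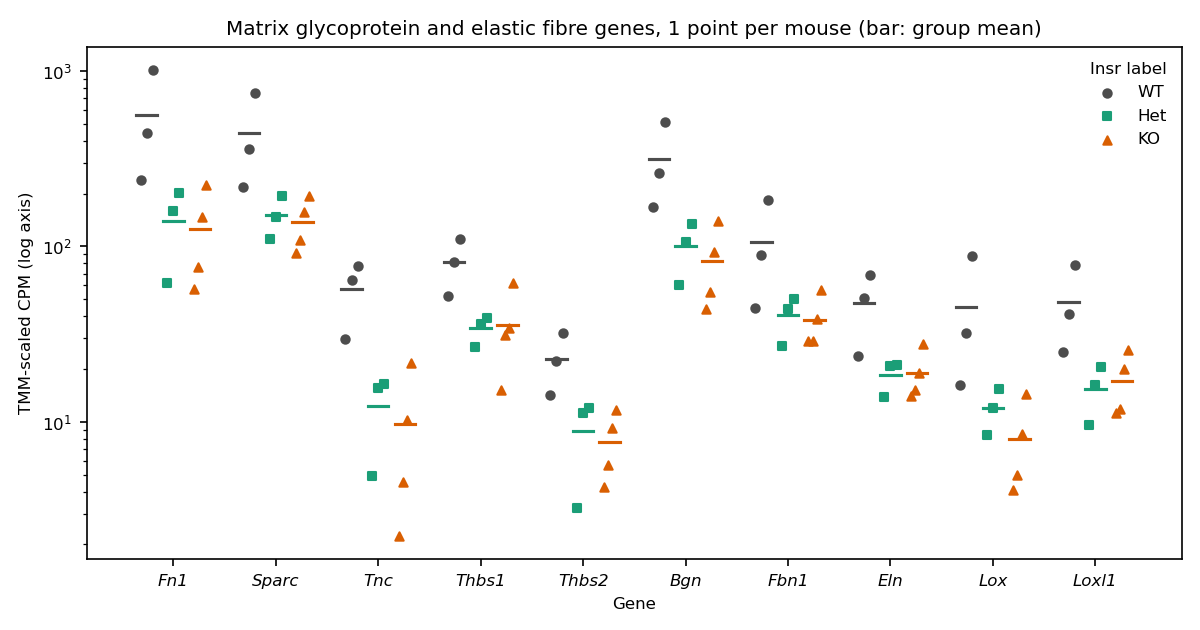
Level of each gene in each mouse, in TMM-scaled CPM on a log axis, with WT as circles, Het as squares and KO as triangles, and a bar at the mean of each group. The highest point of every gene is a WT library (WT-2404), and the lowest WT point, WT-2067, sits beside the highest KO point, KO-2079.

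None of these differences passed edgeR's quasi-likelihood test after Benjamini-Hochberg adjustment over all genes. In KO against WT, 0 of 13688 genes passed (0%) and the smallest adjusted p of any gene was 0.116; 3222 genes had an unadjusted p under 0.05, and DESeq2, the other tool run, called 984 genes. All 10 genes were lower at an unadjusted p under 0.05, where 13.9% of all genes tested were. DESeq2 called all 10 lower, where it called 5.03% of the genes to which it gave an adjusted p, with adjusted p from 0.00167 for Lox to 0.0461 for Thbs1. KO and WT libraries did not overlap for 6 of the 10 (Fn1, Sparc, Tnc, Thbs2, Bgn and Lox), all lower in KO, against 9.15% of all genes.

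In Het against WT, edgeR again called 0 of 13688 genes (0%), with a smallest adjusted p of 0.184, while 2715 genes had an unadjusted p under 0.05 and DESeq2 called 318. The 10 genes were lower at an unadjusted p under 0.05, beside 11.6% of all genes. DESeq2 called 6 of them lower (Fn1, Sparc, Bgn, Loxl1, Lox and Eln), beside 1.36% of the genes to which it gave an adjusted p. The libraries did not overlap for 9 of the 10, the exception being Fbn1, where 13.5% of all genes were separate and lower in Het.

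In KO against Het, edgeR called 0 of 13688 genes (0%) and DESeq2 also 0, and 103 genes had an unadjusted p under 0.05. None of the 10 genes was among those 103, and 0.351% of all genes were lower at that level. All 10 ranges overlapped, where 1.16% of genes were separate and lower in KO. The 95% intervals of the log2 difference were wide: that of Eln, the narrowest, ran from -0.71 to 0.80, and that of Tnc from -1.77 to 1.15, so differences of about that size could not be seen here.

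Fibronectin RNA was the most variable of the abundant members. Fn1 (chr1:71585520-71653200 of GRCm38, minus strand) stood at 1009, 440.2 and 240.3 CPM in WT-2404, WT-1860 and WT-2067, at 61.7 in Het-2066, 158 in Het-1770 and 200.2 in Het-2042, and at 224 in KO-2079, 57.1 in KO-2070, 147 in KO-2124 and 76.1 in KO-2126. Each WT library was above every KO and every Het library, but WT-2067 was above KO-2079 by little. The KO mean of 126 ± 75.8 CPM (SD, n = 4) stood against 563 ± 399 in WT (SD, n = 3) and 140.1 ± 71.0 in Het (SD, n = 3). On the log2 scale the difference from WT was -2.16 in KO (SE 0.59, edgeR adjusted p = 0.116) and -2.01 in Het (SE 0.65, edgeR adjusted p = 0.184).

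The matricellular genes were low in KO and Het together, most of all Tnc. Sparc (chr11:55394500-55423183, minus strand), whose product binds collagen and calcium, stood at 745, 360 and 217 CPM in WT-2404, WT-1860 and WT-2067, at 110.3, 148 and 194 in Het-2066, Het-1770 and Het-2042, and at 194, 108, 157 and 91.6 in KO-2079, KO-2070, KO-2124 and KO-2126. All WT libraries lay above the rest, WT-2067 only a little above Het-2042 and KO-2079. Against WT, Sparc had a log2 fold change of -1.68 in KO (SE 0.41, edgeR adjusted p = 0.116) and of -1.55 in Het (SE 0.45, edgeR adjusted p = 0.184). Sparc was the member for which the exact permutation test of mean log2 CPM over mice gave the smallest p that 3 against 4 mice allow, 0.0286 (two-sided) in KO against WT. For the other 9 the exact p of the same comparison was 0.0571 or 0.0857, and 3 against 3 mice in Het against WT cannot go below 0.1.

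Tnc (chr4:63959785-64047015, minus strand) encodes tenascin C, which is sparse in most healthy adult tissue and deposited in injury and tumour stroma. It stood at 77.3, 64.5 and 29.5 CPM in WT-2404, WT-1860 and WT-2067, at 4.91, 15.7 and 16.3 in Het-2066, Het-1770 and Het-2042, and at 21.6, 2.24, 10.3 and 4.55 in KO-2079, KO-2070, KO-2124 and KO-2126. WT-1860 was close to WT-2404 here, and all WT libraries were clear of the KO and Het libraries. The log2 fold changes were the largest of the 10 genes in both comparisons, -2.52 (SE 0.66, edgeR adjusted p = 0.116) in KO and -2.21 (SE 0.72, edgeR adjusted p = 0.184) in Het against WT. The fewest reads of any member in a library were the 17 counts of Tnc in KO-2070.

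Thbs1 and Thbs2 encode thrombospondins, secreted glycoproteins that bind CD36 and CD47 and restrain vessel growth, and thrombospondin 1 also activates latent TGF-beta. Thbs1 (chr2:118111876-118127133, plus strand) stood at 110, 82.0 and 52.1 CPM in WT-2404, WT-1860 and WT-2067, at 36.3, 26.8 and 38.9 in Het-2066, Het-1770 and Het-2042, and at 61.5, 15.2, 34.3 and 31.4 in KO-2079, KO-2070, KO-2124 and KO-2126. KO-2079 was above WT-2067, so KO and WT overlapped, while Het and WT did not. Thbs2 (chr17:14665500-14694235, minus strand) stood at 32.0, 22.2 and 14.2 CPM in the 3 WT libraries in the same order, at 3.25, 11.2 and 12.0 in Het, and at 11.7, 5.67, 9.17 and 4.25 in KO. Its WT libraries were all above the others, with WT-2067 near Het-2042. Thbs1 had the smallest log2 fold changes of the 10 genes, -1.19 (SE 0.39, edgeR adjusted p = 0.127) in KO and -1.26 (SE 0.43, edgeR adjusted p = 0.184) in Het against WT. Those of Thbs2 were -1.55 (SE 0.45, edgeR adjusted p = 0.120) and -1.37 (SE 0.49, edgeR adjusted p = 0.193).

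Bgn (chrX:73483602-73495933, plus strand) encodes biglycan, a small leucine-rich proteoglycan that binds collagen and signals through toll-like receptors when set free. It stood at 515, 262 and 167 CPM in WT-2404, WT-1860 and WT-2067, at 60.6, 106 and 134 in Het-2066, Het-1770 and Het-2042, and at 139.5, 55.1, 93.1 and 44.0 in KO-2079, KO-2070, KO-2124 and KO-2126. No KO or Het library reached the lowest WT library. Its difference from WT on the log2 scale was -1.92 in KO (SE 0.47, edgeR adjusted p = 0.116) and -1.65 in Het (SE 0.51, edgeR adjusted p = 0.184).

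The structural genes of the elastic fibre, Fbn1 and Eln, had smaller fold changes than most of the others. Fbn1 (chr2:125300594-125507993, minus strand), the gene of fibrillin 1, stood at 184, 89.2 and 44.3 CPM in WT-2404, WT-1860 and WT-2067, at 27.0, 50.4 and 44.2 in Het-2066, Het-1770 and Het-2042, and at 56.1, 29.0, 38.3 and 28.8 in KO-2079, KO-2070, KO-2124 and KO-2126. WT-2067 lay inside the range of both other groups, and Fbn1 was the gene whose Het and WT libraries overlapped. Eln (chr5:134702593-134747323, minus strand), the gene of elastin, stood at 68.6, 51.1 and 23.7 CPM in WT in the same order, at 13.8, 21.0 and 20.7 in Het, and at 27.8, 15.2, 19.1 and 14.0 in KO. KO-2079 was again above WT-2067. The log2 fold changes in KO against WT were -1.47 (SE 0.42, edgeR adjusted p = 0.118) for Fbn1 and -1.33 (SE 0.34, edgeR adjusted p = 0.116) for Eln, and in Het against WT -1.38 (SE 0.46) and -1.37 (SE 0.37), both with an edgeR adjusted p of 0.184.

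Of the 10 genes the cross-linking enzyme Lox had the lowest and its relative Loxl1 the highest log2 difference between KO and Het, -0.55 and 0.16, and neither passed edgeR's test. Lox (chr18:52516067-52529867, minus strand), the gene of lysyl oxidase, stood at 87.6, 32.1 and 16.3 CPM in WT-2404, WT-1860 and WT-2067, at 8.42, 15.5 and 11.9 in Het-2066, Het-1770 and Het-2042, and at 14.3, 4.08, 8.48 and 4.95 in KO-2079, KO-2070, KO-2124 and KO-2126. WT-2067 was the lowest WT library and stood just above Het-1770 and KO-2079. Loxl1 (chr9:58287738-58313186, minus strand) stood at 78.2, 41.3 and 25.1 CPM in WT in the same order, at 9.56, 16.2 and 20.6 in Het, and at 25.7, 11.9, 19.9 and 11.2 in KO. KO-2079 exceeded WT-2067 for Loxl1. The log2 fold change of Lox was -2.48 (SE 0.56, edgeR adjusted p = 0.116) in KO and -1.93 (SE 0.60, edgeR adjusted p = 0.184) in Het against WT, and that of Loxl1 -1.48 (SE 0.41, edgeR adjusted p = 0.116) and -1.64 (SE 0.45, edgeR adjusted p = 0.184).

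The order of the libraries was much the same from gene to gene. WT-2404 was the highest library and WT-1860 the next for all 10 genes. WT-2067 ranked between 3 and 5 of 10, as did KO-2079, so these libraries set where the groups met. The lowest library was Het-2066 for 4 genes, KO-2070 for 4 and KO-2126 for 2. Over the 10 libraries, Pearson's r of log2 CPM between the 45 pairs of members ran from 0.75 (Thbs1 with Thbs2) to 0.99 (Sparc with Bgn), with a median of 0.95, and without WT-2404 from 0.62 to 0.99 with a median of 0.92. These points share their library, its composition and its scaling, so the correlation is a description.

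Without WT-2404 the 10 genes were still below WT, but by less. The log2 fold changes in KO against WT then ran from -2.21 for Tnc to -0.79 for Fbn1, with a median of -1.13, and those in Het against WT from -1.90 for Tnc to -0.70 for Fbn1, with a median of -1.01. At an unadjusted p under 0.05, 9 of the 10 were lower in KO, all but Thbs1, beside 5.29% of all genes tested, and 4 were lower in Het (Sparc, Bgn, Loxl1 and Eln), beside 3.61%. edgeR's adjusted p of the members was then 0.504 to 0.533 for KO and 0.616 to 0.618 for Het, each against WT. Leaving out WT-2067 instead, edgeR called 1932 genes for KO and 1160 for Het. All 10 members were then called lower in KO, beside 7.42% of genes, and 7 in Het, beside 4.03%. The calls therefore depend on which WT mouse is left out, with 2 WT mice remaining either way. With the acinar marker share of each library as a covariate, the medians were -0.89 in KO and -0.74 in Het, and no gene was called. In that edgeR fit 4 of the 10 were lower in KO at an unadjusted p under 0.05, beside 3.11% of all genes. In Het 0 of the 10 were, beside 1.61%.

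**Figure D2:**
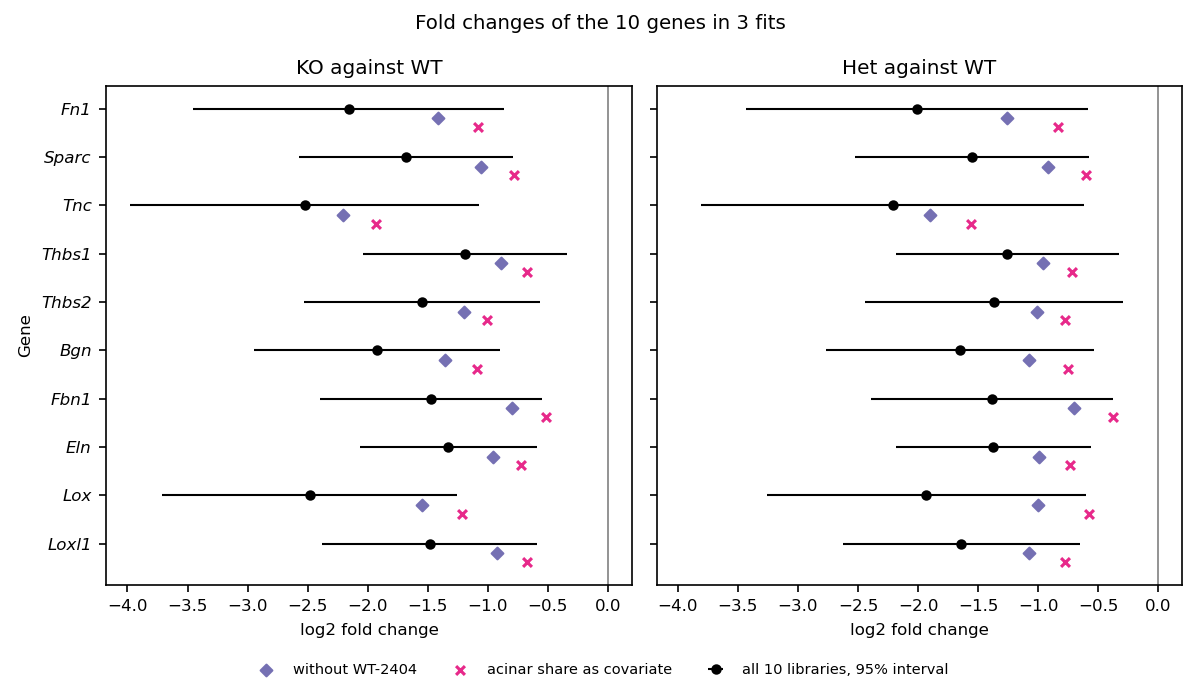
Log2 fold change of each gene in KO against WT (left) and Het against WT (right) from edgeR: black circles with 95% intervals for all 10 libraries, diamonds for the fit without WT-2404 and crosses for the fit with the acinar marker share as a covariate. Every symbol lies below 0, and leaving out WT-2404 moves the median of the 10 genes from -1.61 to -1.13 in KO.

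Levels can be compared between genes only per length. Per kilobase of merged exons, mean CPM over the 10 libraries was highest for Sparc (61.4), then Bgn (25.8) and Fn1 (22.4). Thbs1 (8.04) and Loxl1 (7.88) followed, then Fbn1 (4.87), Lox (4.26), Eln (3.39), Tnc (3.18) and Thbs2 (1.79). Sparc exceeded Bgn, and Loxl1 exceeded Fbn1, in 10 of 10 libraries, and Bgn exceeded Fn1, Fn1 exceeded Thbs1 and Fbn1 exceeded Lox in 9 of 10. Neighbours not separated across libraries were Thbs1 and Loxl1, with Thbs1 higher in 6 of 10, and Lox and Eln, with Lox higher in 5 of 10. Eln was above Tnc in 7 libraries, all of them KO or Het, and Tnc above Eln in the 3 WT libraries. Tnc was above Thbs2 in 8. These means pool the groups, and the order was not the same in each. In WT, mean CPM per kilobase was 14.6 for Loxl1 and 13.4 for Thbs1, 9.48 for Lox and 8.72 for Fbn1, and 7.35 for Tnc and 5.90 for Eln. The WT order of Loxl1 and Thbs1, and that of Lox and Fbn1, rested on WT-2404. In WT-1860 and WT-2067 Thbs1 was above Loxl1 (13.5 against 12.5 and 8.59 against 7.62). Fbn1 was likewise above Lox in both (7.36 against 6.71 and 3.65 against 3.41). In KO, mean CPM per kilobase was 2.34 for Eln, 1.67 for Lox and 1.25 for Tnc. In the GENCODE annotation 6 of the 10 genes share exon bases with a gene on the opposite strand (Fn1, Tnc, Thbs1, Fbn1, Eln and Lox), and whether the counting used strand is not given in the sources used here, so reads of the partners cannot be told apart.

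Count ratios of related members within a library need no scaling between libraries. These pairs were chosen after the values were seen. Loxl1 had 0.893, 1.29 and 1.54 counts per count of Lox in WT-2404, WT-1860 and WT-2067, 1.14, 1.05 and 1.73 in Het-2066, Het-1770 and Het-2042, and 1.79, 2.90, 2.34 and 2.27 in KO-2079, KO-2070, KO-2124 and KO-2126. All 4 KO libraries were above all WT and Het libraries. The log2 ratio was 1.20 ± 0.29 in KO (SD, n = 4), 0.28 ± 0.40 in WT (SD, n = 3) and 0.35 ± 0.39 in Het (SD, n = 3). Its exact permutation p (two-sided) was 0.0286 in both KO comparisons, the smallest possible, and 0.171 after Benjamini-Hochberg adjustment over the 12 comparisons of 4 pairs. This adjustment does not cover the choice of the pairs after their values were seen. The p-values of these ratios therefore describe the separation and are no independent test of it. The ratio of Fbn1 to Eln stayed between 1.91 and 2.07 in the KO libraries and between 1.75 and 2.68 in WT, and the groups overlapped. Sparc counts per count of Tnc ran from 5.57 to 9.64 in WT and from 8.96 to 48.4 in KO, with an exact permutation p of 0.0857, or 0.343 adjusted. Thbs1 counts per count of Thbs2 ran from 3.43 to 3.70 in WT, inside the ranges of 2.40 to 11.2 in Het and 2.67 to 7.40 in KO.

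**Figure D3:**
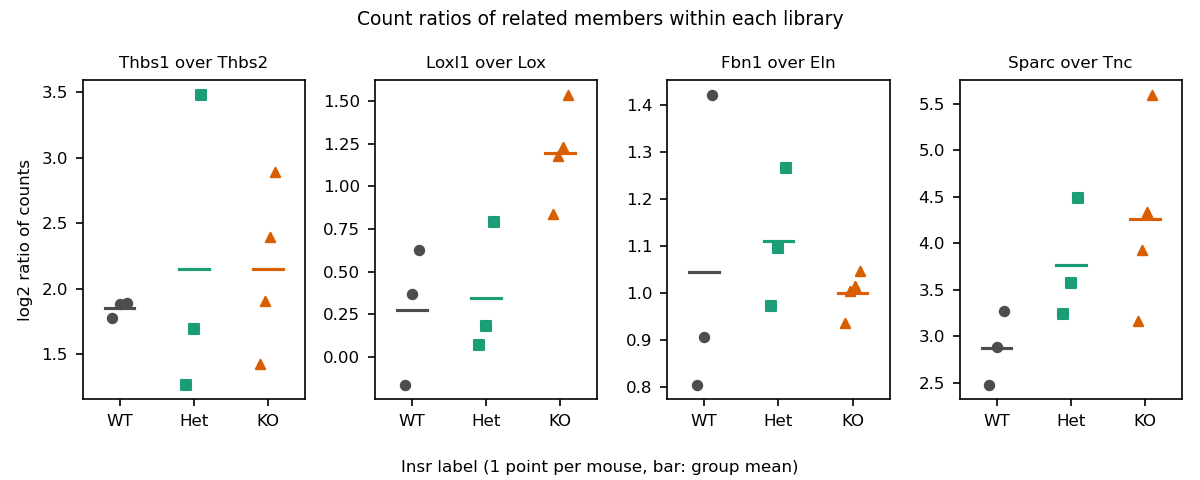
Log2 ratio of the counts of 4 pairs of related members in each mouse, by group, with a bar at the group mean; each panel has its own vertical axis. In the panel of Loxl1 over Lox the 4 KO points lie above all WT and Het points, while in the other panels KO overlaps WT.

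The other genes of elastic fibre assembly were mostly below WT as well. Of 18 partners (fibulins, microfibril-associated proteins, latent TGF-beta binding proteins, emilins and further lysyl oxidase-like enzymes), edgeR called 0 past its adjusted threshold in any comparison. In KO against WT 16 of 18 had a log2 fold change below 0, with a median of -1.16. At an unadjusted p under 0.05, 13 were lower, beside 13.9% of all genes tested. In Het against WT 16 were below 0, with a median of -1.20, and 12 were lower at that level, beside 11.6%. The 3 with the smallest p in KO against WT were Fbn2, Loxl2 and Emilin1. Fbn2, the second fibrillin gene, was at 2.39 ± 1.46 CPM in KO (SD, n = 4) and 14.1 ± 9.25 in WT (SD, n = 3), a log2 fold change of -2.51. Loxl2 was at 5.80 ± 1.65 in KO and 15.9 ± 8.23 in WT (-1.45), and Emilin1, whose product sits between elastin and microfibrils, at 11.2 ± 2.82 and 24.6 ± 12.0 (-1.14). Chosen after their values were seen, Fbln5 (-0.08), Efemp1 (-0.08), Ltbp3 (0.15) and Ltbp4 (0.24) stayed near 0 in KO against WT. Fibulin 5, the product of Fbln5, binds elastin, and the products of the Ltbp genes hold latent TGF-beta in the matrix. Without WT-2404, 15 of the 18 partners were below 0 in KO, with a median of -0.69. At an unadjusted p under 0.05, 8 were then lower, beside 5.29% of all genes.

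Of 24 further matricellular and adhesive glycoprotein genes 23 were tested, and edgeR called 0. In KO against WT 21 were below 0, with a median log2 fold change of -0.75. At an unadjusted p under 0.05, 12 were lower, beside 13.9% of all genes, and 1 was higher. Spp1, the gene of osteopontin, was at 151 ± 79.0 CPM in KO (SD, n = 4) and 440.1 ± 222 in WT (SD, n = 3), a log2 fold change of -1.54. Ecm1 was at 14.1 ± 3.05 and 33.9 ± 16.1 CPM (-1.26), and Fbln7, a low-abundance fibulin with 0 counts in 1 library, at 0.308 ± 0.249 and 2.37 ± 2.09 CPM (-2.80). In Het against WT 20 of the 23 were below 0, with a median of -0.90. Without WT-2404 the number below 0 in KO was again 21, with a median of -0.67. Beside 5.29% of all genes, 5 were then lower at an unadjusted p under 0.05.

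The family of biglycan had fold changes nearer to 0 than Bgn itself in KO against WT. Of the 10 other small leucine-rich proteoglycan genes 9 were tested and edgeR called 0. In KO against WT the median was -0.39 on the log2 scale, with 6 below 0. At an unadjusted p under 0.05, 3 were lower, beside 13.9% of all genes, and 1 (Omd) was higher. Lum, the gene of lumican, was at 18.1 ± 6.58 CPM in KO (SD, n = 4) and 59.0 ± 30.3 in WT (SD, n = 3), a log2 fold change of -1.70. Prelp was at 23.3 ± 4.74 and 35.9 ± 11.9 CPM (-0.63), and Omd, with 0 counts in 1 library, at 0.762 ± 0.413 and 0.215 ± 0.214 CPM (1.78). Dcn, the gene of decorin and the closest relative of Bgn, was singled out after its values were seen: it was at 181 CPM in both KO and WT, with a log2 fold change of 0.00, beside -1.92 for Bgn. That difference between Bgn and Dcn was not tested by itself. Receptors that bind the members were measured too: 10 of 12 were below 0 in KO against WT, with a median of -0.49, and edgeR called 0. Beside 13.9% of all genes, 5 of the receptors were lower at an unadjusted p under 0.05. Cd36, a receptor of thrombospondins, was higher at that level, with a log2 fold change of 0.68. Sdc1 (syndecan 1) had a log2 fold change of -1.59, Itga5, the fibronectin receptor subunit, -1.01 and Tlr4, through which free biglycan signals, -1.26. Without WT-2404 the medians were -0.22 for both lists.

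**Figure D4:**
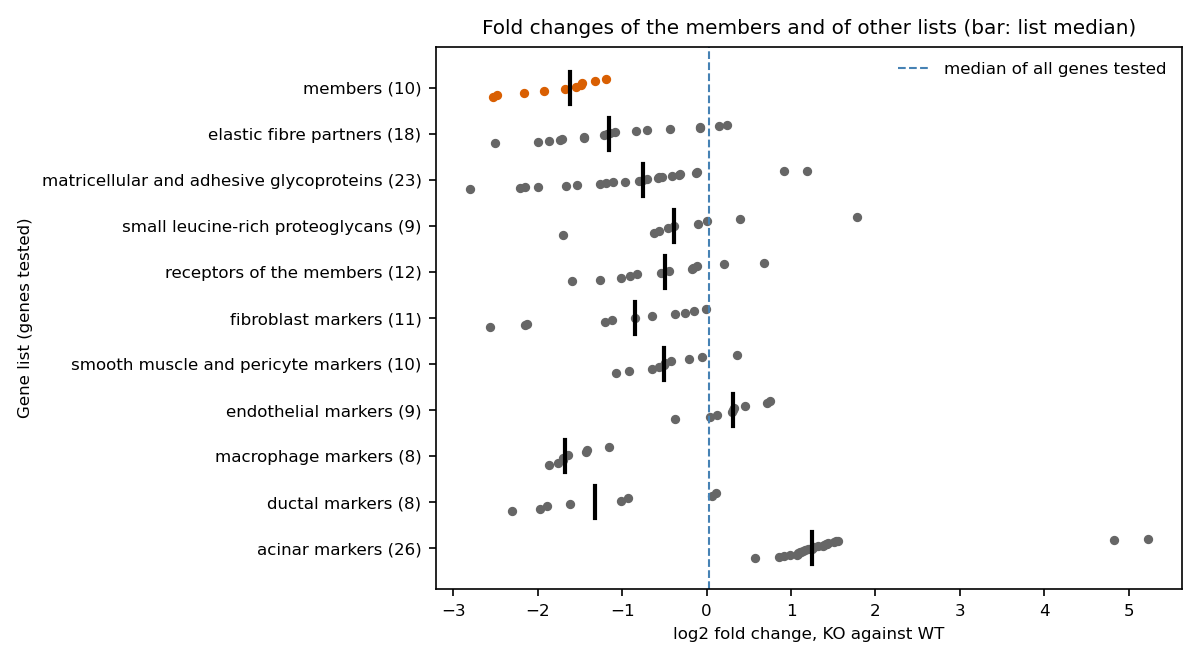
Log2 fold change in KO against WT of the 10 genes (top row) and of the genes of other lists, 1 point per gene, with the number tested in brackets, a vertical bar at the list median and a dashed line at the median of all genes tested. The 10 genes, macrophage markers and ductal markers have medians of -1.61, -1.67 and -1.32, and the acinar markers have a median of 1.25.

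Markers of several cell types moved with the 10 genes. Of 12 fibroblast markers 11 were tested, and all 11 were below 0 in KO against WT, with a median of -0.84. Beside 13.9% of all genes, 5 of these markers were lower at an unadjusted p under 0.05. Their summed level was 1158 to 4229 CPM in WT, 412 to 895 in Het and 360 to 1046 in KO, and none of those tested was at 0 in any library; Twist2, which was not tested, had 0 counts in some. Col1a1, a chain of type I collagen, was at 102 ± 73.9 CPM in KO (SD, n = 4) and 605 ± 433 in WT (SD, n = 3), a log2 fold change of -2.57. Col3a1 was at 233 ± 136 and 1017 ± 790 CPM (-2.13), and Prrx1, a mesenchymal transcription factor, at 7.65 ± 1.54 and 16.6 ± 6.71 CPM (-1.12). The other non-collagen markers tested, named after their values were seen, spread from -1.20 for Cygb, with KO and WT separate, through Fap (-0.84), Tcf21 (-0.65), Pdgfra (-0.37), Pi16 (-0.25) and Dpt (-0.15) to -0.01 for Clec3b. Their part in the result was not tested.

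The other lists moved in both directions. Of all genes tested, 13.9% were lower in KO against WT at an unadjusted p under 0.05. All 8 macrophage markers were below 0 in KO against WT, 7 at an unadjusted p under 0.05, with a median of -1.67 and a summed level of 412 to 1681 CPM in WT, 226 to 341 in Het and 133 to 486 in KO. C1qa, a complement gene of tissue macrophages, was at -1.70, C1qb at -1.76 and Cd68 at -1.87. Of 8 ductal markers 6 were below 0, all 6 at an unadjusted p under 0.05, with sums of 506 to 604 CPM in WT, 232 to 459 in Het and 258 to 383 in KO. The keratin genes Krt19 and Krt7 were at -1.62 and -1.97, and Sox9 at -0.93. Smooth muscle and pericyte markers were below 0 in 9 of 10 cases, with a median of -0.50 and sums of 84.0 to 132 CPM in WT and 38.1 to 97.1 in KO, and Acta2, Rgs5 and Tagln were at -1.07, -0.56 and -0.92. The 9 lymphoid markers were all below 0 (median -1.31), at sums of only 14.5 to 34.3 CPM in WT and 2.32 to 20.6 in KO, and 4 of them were at 0 in some library. Cd4, Cd79a and Cxcr5 were at -1.49, -1.61 and -1.31. Endothelial (0.31), islet (0.81), adipocyte (0.50), mesothelial (0.40) and acinar (1.25) markers had medians above 0. Few of them passed an unadjusted p under 0.05: 2 of 9 endothelial, 0 of 7 islet and 0 of 6 adipocyte markers were higher. So were 1 of 4 mesothelial and 2 of 26 acinar markers, beside 1315 of all 13688 genes tested. The endothelial genes Kdr, Tek and Flt1 were at 0.76, 0.45 and 0.72, the islet genes Sst, Iapp and Chga at 0.89, 0.77 and 0.82, and the adipocyte genes Adipoq, Cfd and Cidec at 0.92, 0.80 and 0.60. The mesothelial genes Msln, Upk3b and Lrrn4 were at -0.44, 1.51 and 0.77. Of the acinar genes, Gp2 was at 1.51 and Ctrc at 5.23, with 4133 ± 5364 CPM in KO (SD, n = 4) and 110.1 ± 105 in WT (SD, n = 3), while Amy2a5 had 0 counts in all WT libraries and is given no fold. Without WT-2404 the medians in KO against WT were -0.43 for fibroblast, -0.79 for macrophage, -1.23 for ductal and 0.69 for acinar markers. They were then 0.24 for endothelial, 0.30 for islet, 0.30 for adipocyte and 0.92 for mesothelial markers. The part of these lists in the result was not tested.

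Set against fibroblast markers in the same library, the sum of the 10 genes, to which Fn1, Sparc and Bgn add most, had overlapping ranges in the 3 groups, while the mean differences of single genes lay on either side of 0. The summed counts per count of the fibroblast list were 0.69 to 0.84 in all 10 libraries, with log2 ratios of -0.54 to -0.28 in WT, -0.43 to -0.29 in Het and -0.43 to -0.24 in KO. The difference in mean log2 ratio from WT was 0.11 in KO and 0.07 in Het. Gene by gene the difference ran from -1.06 for Tnc to 0.62 for Eln in KO, and from -0.65 for Tnc to 0.44 for Fbn1 in Het. KO and WT overlapped for 7 of the 10, Tnc and Eln among them, Lox was lower in every KO library and Fbn1 and Loxl1 were higher, and Het and WT overlapped for all 10. The highest levels in this list were those of the collagen genes Col1a1, Col1a2 and Col3a1, with WT means of 605, 549.8 and 1017 CPM. With the collagens left out of it, the difference was -1.33 in KO and -1.07 in Het against WT, and 7 of the 10 genes were lower in every KO library and 7 in every Het library. Per count of the smooth muscle and pericyte markers it was -1.18 and -1.09, with 5 and 7 genes separate and lower. Per count of the small leucine-rich proteoglycans it was -1.48 and -1.33, with 6 and 9 genes separate and lower. No test was run on these ratios, which are given by their ranges. No share of all genes stands beside the counts of separate genes, so these counts cannot be called unusual.

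**Figure D5:**
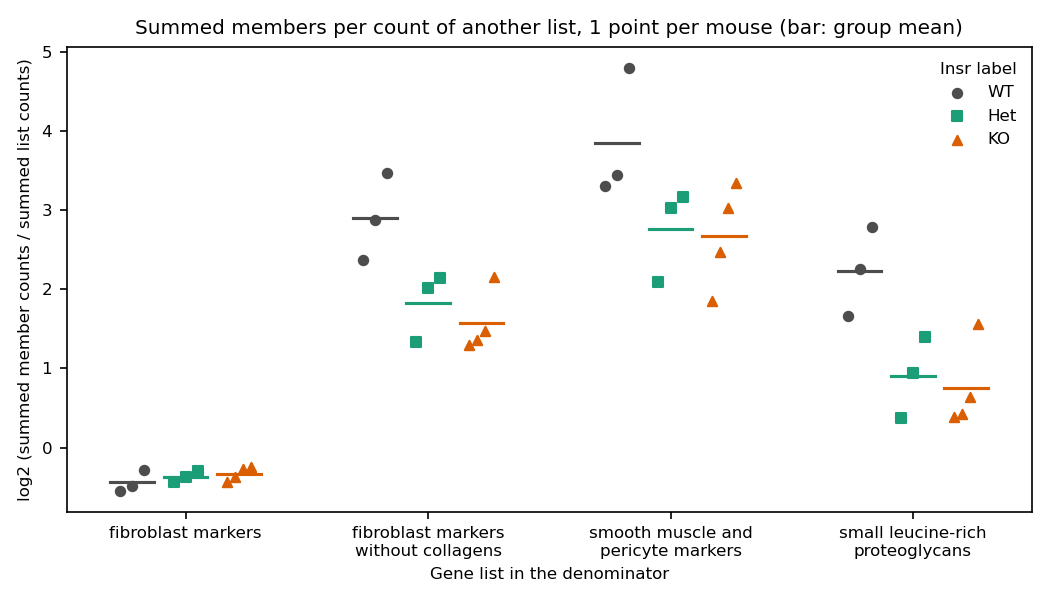
Log2 of the summed counts of the 10 genes over the summed counts of another list in the same library, 1 point per mouse, with a bar at the group mean. Over the whole fibroblast list all points lie between -0.54 and -0.24, and over the other 3 lists the WT mean lies above the Het and KO means.

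Among 10827 other genes with a mean of at least 1 log2 CPM, the genes most like each member over the 10 libraries were named by Pearson's r of log2 CPM. Tnc was most like Postn (periostin, r = 0.99), Fbn1 most like Svep1 (r = 0.99) and Mfap5 (r = 0.99), and Fn1 most like Col16a1 (r = 0.998) and Myof (r = 0.99). For Thbs2 they were Kctd5 (r = 0.99) and Mfap2 (r = 0.98), for Lox Arg1 (r = 0.99) and Efemp2 (r = 0.99), and for Loxl1 Fstl1 (r = 0.99) and Naaa (r = 0.99). Sparc was most like Psap and Tubb5, Bgn most like Clic1 and Actg1, Eln most like Cdkn1a and Mrc2 and Thbs1 most like Tspan14 and Sorl1. The r of Thbs1 with its closest gene, 0.96, was the lowest of the 10. These are the extremes of a search over many genes in 10 libraries that share their composition, and r without WT-2404 ranged from 0.947 to 0.996 for the genes named.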

How the data were processed

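The authors deposited 1 table of raw counts per gene symbol, with 1 column per mouse for 10 mice. Per the submitters' processing notes DRAGEN, STAR, Cufflinks and mm10 were used; versions, roles, annotation and strand setting are not given in the sources used here. Columns were matched to samples by genotype and mouse number, and the 2 rows that name no gene (2.59% to 8.71% and 0.101% to 0.584% of counts) stayed out. An allele shared by every group and 1 of the genes named by Pearson's r are not reported here. Genes passing filterByExpr (minimum count 10) were tested with edgeR 4.0.16 (TMM factors, robust quasi-likelihood test, 1 fit of all 10 libraries, Benjamini-Hochberg adjustment, threshold 0.05), with DESeq2 1.42.0 as an alternative. log2 CPM used a prior count of 2. Single values were compared by exact permutation over mice. Replicates differed by more than counting noise (chi-square per degree of freedom at least 26.5). Mice are the replicates. The 10 genes, the other lists and the alternatives were chosen with earlier results of these data known. From each other list the 3 genes with the smallest p in KO against WT were named, and for each member the 2 genes with the highest Pearson r. Scripts were tested on simulated counts. Alternatives were other scalings and filters, the acinar share as covariate, fits of 2 groups and leaving out each library. Of the 24421 genes 6269 had no count, and a gene with 0 counts may stand at up to 3 counts, or 0.0501 to 0.395 CPM by library, for counting error only. Older symbols were matched through RefSeq for 4 listed genes. Exon lengths and positions came from GENCODE (GRCm38).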

Additional observations from a re-analysis of the deposited data

Results flagged for a closer look

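Of 26 values of the 4 KO libraries scanned for a library far from the others, 1 stood out, where chance alone gives about 1.3. In KO-2079 the Insr level was 22.7 CPM, below the 33.3 to 35.5 CPM of the other 3. KO-2079 was also the KO library with the highest level of each of the 10 matrix genes. WT-2404, which has 0 floxed alleles, had an Insr level of 21.0 CPM and the highest level of all 10. Whether the levels of Insr and of the matrix genes go together was not tested.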

How the results depend on the processing

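All 340 fold changes of the members against WT under the alternatives stayed below 0 (-4.06 to -0.37), and 53 passed the adjusted threshold. The alternatives are refits of the same 10 genes in the same mice. All 53 came from DESeq2, library size alone and the fit without WT-2067, and the other alternatives called no member. Of all genes with an adjusted p, DESeq2 called 5.03% lower in KO and 1.36% in Het. The fit without WT-2067 called 7.42% and 4.03% lower. DESeq2 called 984 genes with 10 members in KO against WT and 318 with 6 in Het against WT. Library size alone called 2841 genes (20.8% of all tested) with 10 members and 3140 (22.9%) with 10, all of them lower. It moved the median of all genes to -1.17 and -1.36, and the members' medians were then -3.08 and -3.30. Leaving out each library in turn gave 0 to 1932 genes and 0 to 10 members in KO against WT, and 0 to 1160 genes and 0 to 7 members in Het against WT. Per count of smooth muscle and pericyte markers the summed members differed by -1.18 (KO) and -1.09 (Het), and without collagens in the fibroblast list by -1.33 and -1.07, in place of 0.11 and 0.07. In KO against Het directions were unstable for the members other than Lox. Lox stayed below 0 in every alternative, at -0.99 to -0.33 when each library was left out. With library size alone the reversed values were 0.14 (median), 0.16 (Fn1), 0.12 (Sparc), 0.16 (Fbn1), 0.0053 (Bgn), 9.8e-05 (Tnc) and 0.11 (Thbs2). Leaving out each library gave -0.41 to 0.11 (median), -0.58 to 0.20 (Fn1), -0.34 to 0.10 (Sparc), -0.34 to 0.10 (Fbn1), -0.10 to 0.42 (Loxl1), -0.20 to 0.17 (Eln), -0.33 to 0.32 (Thbs1) and -0.57 to 0.12 (Thbs2). Differences in mean log2 CPM ran from -0.70 to 0.15 (Fn1), -0.36 to 0.047 (Sparc), -0.37 to 0.082 (Fbn1), -0.18 to 0.37 (Loxl1), -0.19 to 0.14 (Eln), -0.40 to 0.27 (Thbs1) and -0.69 to 0.23 (Thbs2). The exact p of Sparc in KO against WT (0.0286) lost the threshold without any KO or WT library, since fewer mice cannot reach it. The cause of the other shifts was not tested. No paired analysis was possible because the mouse numbers are not shared between groups.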
